A study of Mus musculus with 24 samples.

Results

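R342C is a substitution of an arginine by a cysteine in the third zinc finger of CTCF. Here it was carried by a doxycycline-inducible Ctcf transgene in mouse embryonic stem cells and compared with the wild-type transgene. The comparison rests on 4 of the 24 libraries of the series, the 2 labelled R342C ID and the 2 labelled WT ID, taken from the deposited table of normalized counts by their column names. All cells derive from the E14Tg2a line (strain 129/Ola), and the endogenous CTCF of the degron line they come from is degraded when indole-3-acetic acid (IAA, an auxin) is added. R342C ID cells received 500 µM IAA and 1 µg/ml doxycycline for 2 days, so that the R342C transgene was expressed while the endogenous protein was depleted. WT ID cells received the same treatment and expressed the wild-type transgene. Beside them stood 3 more references that entered tests. They were R339Q ID, the other 8 mutant lines under IAA and doxycycline, and WT IAA (the wild-type line with IAA alone). R339Q is the neighbouring substitution in the same finger. The 8 lines (R339Q, S354F, K365T, R377C, R377H, Q418R, R448Q and H455R) gave 16 libraries. Untreated cells of the wild-type line, which received neither IAA nor doxycycline, were set beside some genes and stretches without a test. Cells of all groups grew without feeders in serum with leukemia inhibitory factor, the GSK3 inhibitor CHIR99021 and the MEK inhibitor PD0325901. The labels refer to the derived lines as clones and give each substitution 1 line, so that the substitution and the line cannot be told apart.

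CTCF binds DNA through a row of C2H2 zinc fingers and marks insulators and the borders of chromatin loops, where it halts the ring-shaped cohesin complex as it extrudes DNA. Its central fingers read the core of the binding motif. It is known for its part in imprinting, in promoter choice of the clustered protocadherins and in keeping enhancers from unrelated genes.

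The stretch of the Ctcf coding sequence that encodes finger 3 is shown because R342C and R339Q lie in it. A search of the 736-codon reading frame (GENCODE M21 transcript, Ctcf on chromosome 8, 105636568 to 105682922, plus strand) for the C2H2 pattern placed both arginines in the third match, 3 codons apart. Capitals mark the codon of R339 (first) and that of R342.
Ctcf, codons 324 to 345: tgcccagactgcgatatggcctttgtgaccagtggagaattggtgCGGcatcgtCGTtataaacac

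The R342C ID libraries held 77.1 M and 35.4 M reads over genes and the WT ID libraries 57.5 M and 42.9 M, within a range of 27.8 M to 77.1 M over all libraries. The mean chi-square per gene between the libraries of a pair was highest in R342C ID, at 42.0 against 6.51 to 32.5 in the 10 other groups, while its median, 3.36, was second to the 3.58 of K365T ID. Mitochondrially encoded RNA took 2.06% and 2.78% of reads in R342C ID and 1.62% and 1.92% in WT ID. Ctcf itself had 8262 and 8902 normalized counts in R342C ID libraries, against 9973 and 10418 in WT ID libraries and 9248 and 9112 in WT IAA libraries. It was the lowest in R342C ID without overlap, with a log2 fold change of −0.25 ± 0.06 (SE, limma adjusted p = 0.00697). This small difference did not pass when R342C ID replicate 1 (adjusted p = 0.0766) or WT ID replicate 2 was left out (adjusted p = 0.0813), and whether reads of the transgene are part of the count is not given in the sources used here. No label tells whether replicates came from separate cultures, so the p-values rest on a spread between libraries that may be technical. That spread was pooled over 22 libraries of 11 groups. It may therefore understate the spread of a single group such as R342C ID. The chi-square was taken on reads and grows with depth, so it does not measure that spread, and whether the spread was understated was not tested.

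Of 18713 genes tested, 4365 (23.3%) differed between R342C ID and WT ID at an adjusted p under 0.05. They comprised 1871 higher (10%) and 2494 lower (13.3%) in R342C ID. Increases were larger, with a median log2 fold change of 0.82 among genes called higher and −0.35 among those called lower. By at least 2-fold, 696 genes (3.72%) were higher and 232 (1.24%) lower. The strand setting of the counting is not given in the sources used here, so reads of overlapping genes cannot be assigned with certainty. The split between directions depended on the scale, since 2264 genes were higher and 963 lower on TPM, which scales each library to a fixed sum after division by gene length. Counts also moved with single libraries, from 2003 calls when WT ID replicate 2 was left out and 2248 when R342C ID replicate 1 was, to 4189 in the absence of R342C ID replicate 2. The largest increases and decreases named by rule below kept their call under every alternative tried. Counts of the gene groups below in R342C ID against WT ID are to be read against the 10% of all genes that were higher and the 13.3% that were lower. The other comparisons have shares of their own. In groups with 5 or fewer calls in a direction, leaving out 1 library often moved the count by over 1.5 times.

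Of the decreases named by rule, the largest fell on the Xlr genes, a family of X-linked genes related to the synaptonemal complex protein SYCP3 that includes imprinted members in mouse. All 10 members tested of 16 matched were lower in R342C ID, with a median log2 fold change of −3.40 where the median over all genes was −0.03. The other 6 did not reach the mean of 10 normalized counts required for testing, and 3 of them (Xlr3e-ps, Xlr4d-ps and Xlr5d-ps) were at 0 in all 4 libraries. Xlr3c (chromosome X, 73254540 to 73265390, minus strand) had 88.3 and 181 normalized counts in R342C ID libraries, against 1644 and 1561 in WT ID libraries. Xlr5a had 5.05 and 6.96 in R342C ID and 248 and 229.6 in WT ID, and Xlr4c had 7.57 and 24.4 in R342C ID and 231 and 185 in WT ID. In each of these genes both R342C libraries lay far below both WT ID libraries, and the rule that named them required that the groups not overlap. The log2 fold changes were −3.65 ± 0.25 (adjusted p = 2.56e-08) for Xlr3c, −5.11 ± 0.30 (adjusted p = 7.93e-09) for Xlr5a and −3.82 ± 0.38 (adjusted p = 1.48e-06) for Xlr4c. Without R342C ID replicate 1 that of Xlr4c was −3.04 and without replicate 2 it was −4.60. Centring along chromosomes brought Xlr3c to −2.99, Xlr5a to −4.46 and Xlr4c to −3.15. The smallest differences in the cluster were those of Xlr3a (−2.47) and Xlr3b (−1.84). Xlr, which lies apart from the cluster, differed by −1.54 and lost its call when R342C ID replicate 1 (adjusted p = 0.0984) or WT ID replicate 2 was dropped (adjusted p = 0.187) and when the 4 libraries were fitted alone (adjusted p = 0.0912). Summed over the family, TPM reached 22.3 and 35.7 in R342C ID and 224 and 191 in WT ID. Near-identical copies share reads, and the annotated span of Xlr5a (73107635 to 73292976) runs across other members, so the division of counts between copies is uncertain.

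**Figure D1:**
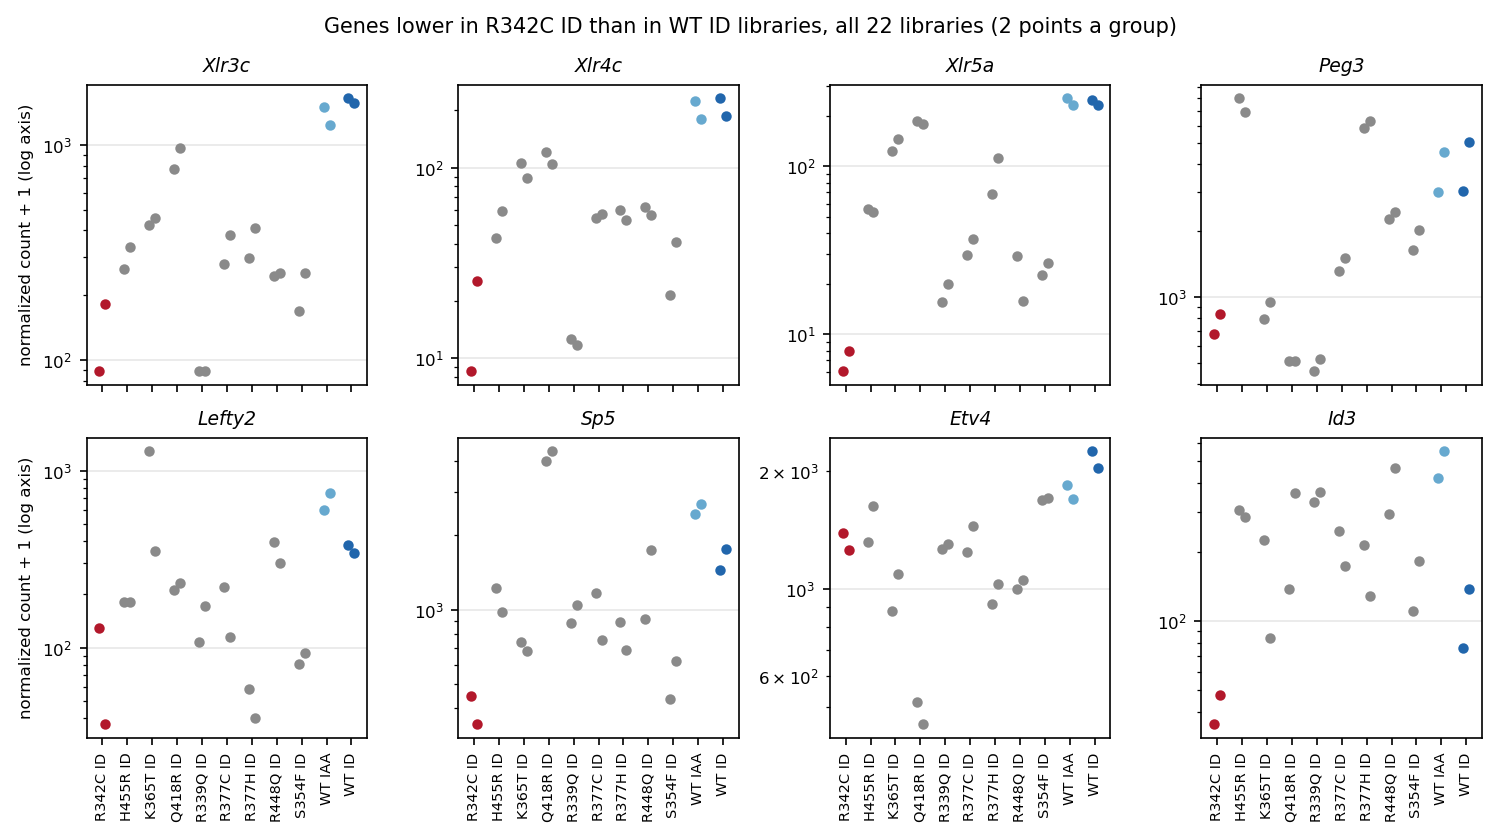
Normalized counts plus 1 (vertical, log axis, one scale per panel) of 8 genes that were lower in R342C ID than in WT ID, in each of 22 libraries grouped by line and treatment (2 points per group, no error bars). R342C ID (red, left) lies below WT ID (dark blue, right) in every panel, and for Xlr5a, at 5.05 and 6.96 normalized counts, below every other library. Xlr5a was named by a rule that picks genes low in R342C ID.

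Levels set side by side with untreated cells were read from TPM, since the untreated libraries were scaled in a separate table. Xlr3c stood at 4.69 and 8.81 TPM in R342C ID, 80.8 and 71.4 in WT ID and 80.6 and 64.7 in untreated cells of the wild-type line. The R342C libraries lay far below the other 4, and the WT ID and untreated libraries overlapped. Of 7 tested genes beside the cluster 1 was higher and 2 lower (median −0.18), while centring along chromosomes gave 5 higher and 0 lower (median 0.44). Zfp275, a zinc finger gene on its distal side, had 1445 and 1732 normalized counts in R342C ID and 1897 and 1609 in WT ID, and Haus7, a subunit of the augmin complex, had 689.7 and 782 in R342C ID and 818 and 849 in WT ID. Zfp275 overlapped between the groups, Haus7 was lower in both R342C libraries, and neither passed. Pnma5, a paraneoplastic antigen gene on the proximal side, was lower at 1120 and 1482 in R342C ID against 2659 and 2666 in WT ID (−1.05 ± 0.14), a call lost when values were centred along the chromosome (adjusted p = 0.253). Over the 36 tested genes of chromosome X between Fmr1nb and Gm18336 (68761839 to 73398736), which include the cluster, 22 were lower and 1 higher, with a median of −0.71. The stretch was delimited by its low running median in R342C ID against WT ID, so this count and median follow from the choice. The medians of the same genes were −0.94 in R339Q ID, −0.59 to −0.29 in the other 7 mutants and −0.07 in WT IAA.

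A promoter from each subfamily of the cluster is shown because these genes fell together (RefSeq, GRCm38.p6, 250 bases before to 50 after the start). In each line capitals mark CCAAT, the pentamer that the factor NF-Y reads. All promoters were searched on both strands, and 37.4% of the 32851 promoters hold it at least once. Among the 10 Xlr promoters in the table, 8 hold it.
Xlr3c, chrX:73265341-73265640, minus strand: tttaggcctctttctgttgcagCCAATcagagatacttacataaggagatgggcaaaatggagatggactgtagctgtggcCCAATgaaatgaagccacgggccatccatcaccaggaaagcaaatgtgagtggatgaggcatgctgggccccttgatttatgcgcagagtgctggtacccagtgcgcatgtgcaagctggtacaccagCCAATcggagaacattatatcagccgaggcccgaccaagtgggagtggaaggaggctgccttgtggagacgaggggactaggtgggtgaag
Xlr4c, chrX:73243081-73243380, minus strand: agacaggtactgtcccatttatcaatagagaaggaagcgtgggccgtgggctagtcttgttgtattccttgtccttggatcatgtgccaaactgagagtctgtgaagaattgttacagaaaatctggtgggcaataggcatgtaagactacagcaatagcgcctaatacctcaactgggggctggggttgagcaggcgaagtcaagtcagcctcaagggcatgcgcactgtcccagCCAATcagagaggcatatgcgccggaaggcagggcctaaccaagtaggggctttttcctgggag
Xlr5a, chrX:73117653-73117952, minus strand: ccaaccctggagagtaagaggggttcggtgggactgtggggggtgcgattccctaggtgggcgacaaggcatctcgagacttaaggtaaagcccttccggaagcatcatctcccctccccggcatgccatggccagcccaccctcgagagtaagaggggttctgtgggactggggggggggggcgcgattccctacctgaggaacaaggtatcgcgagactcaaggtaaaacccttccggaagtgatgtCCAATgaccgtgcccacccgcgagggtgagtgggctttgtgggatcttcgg
The longest run around a CCAAT that the promoters of Xlr3a to Xlr3c and Xlr4a to Xlr4c share is CAGCCAATCAGAGA, found by comparing them. It is in these 6 of the 10 Xlr promoters and in 0.0487% of all promoters. The letters AGGGGGC, a G-rich piece of the CTCF core motif, are in 10.6% of all promoters and in 0 of the 10 Xlr promoters. Of 37 genes named by rule that have a promoter entry, 9 hold them in any of their entries, among them Bhlhe41 and Gata2. This counts genes and the 10.6% counts promoters, so these shares are not in the same unit. These matches describe letters in a window and not binding.

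Imprinted genes moved in both directions, with 6 higher and 11 lower of 49 tested and a median of −0.02. Within this list the decreases were led by the Peg3 domain on chromosome 7. The Xlr genes that fell by more than Peg3 were not in the list. Peg3, a paternally expressed zinc finger gene, had 677 and 835 normalized counts in R342C ID libraries, against 3038 and 5036 in WT ID libraries (−2.38 ± 0.19, limma adjusted p = 1.49e-07). Its neighbours Usp29, which encodes a deubiquitinase and is transcribed the other way (−1.78 ± 0.21), and Zim2 (−2.01 ± 0.41) fell with it, and R342C and WT ID libraries did not overlap in any of the 3, as was the case for 61.8% of all genes tested. Impact, a regulator of the GCN2 kinase, fell to 7227 and 7944 in R342C ID, against 13533 and 12764 in WT ID (−0.79 ± 0.08). Plagl1 fell by less (−0.51 ± 0.08). On chromosome 6 the divergently transcribed pair Peg10 and Sgce rose. Peg10, a gene of retrotransposon origin, had 1880 and 2223 in R342C ID and 920.2 and 681 in WT ID (1.37 ± 0.29), and Sgce, which encodes epsilon-sarcoglycan, had 64.6 and 87.0 in R342C ID and 30.0 and 19.1 in WT ID (1.61 ± 0.32). Igf2r, the receptor that clears IGF2, was 1.52-fold higher (0.61 ± 0.08), and Begain rose too (1.05 ± 0.19). Meg3, a long non-coding RNA of the Dlk1 region, had 10447 and 11908 in R342C ID and 9365 and 10902 in WT ID and did not pass (0.14 ± 0.26). The 11 decreases became 6 when R342C ID replicate 1 was dropped, 7 and 5 when WT ID replicate 1 and 2 were, and 6 on TPM.

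Other large decreases were scattered. Efhc2, an X-linked gene for a protein with an EF-hand, had 65.1 and 107 normalized counts in R342C ID and 676 and 874 in WT ID (−3.19 ± 0.21). Pkhd1, the gene of recessive polycystic kidney disease, had 22.7 and 13.9 in R342C ID and 163 and 153 in WT ID (−3.08 ± 0.43). Nckap5 (−2.85 ± 0.41) and the choline transporter-like gene Slc44a5 (−2.27 ± 0.38) were lower as well, Pkhd1 and Nckap5 standing at −2.20 and −2.02 on TPM. The rule that named these 4 required that the groups not overlap. Zfy1, a zinc finger gene of the Y chromosome, had 93.3 and 122 in R342C ID and 478 and 511 in WT ID (−2.20 ± 0.23). Y-linked genes differed in the size of their change. Of 15 tested on chromosome Y, 6 were lower and 0 higher (these genes were added after Zfy1 was seen). The decreases ran from Uty (−0.29) and Ddx3y (−0.43) to Uba1y (−1.19), Kdm5d (−1.70) and Zfy1. Eif2s3y (−0.22), Usp9y (−0.71) and Zfy2 (−1.08) did not pass. Mid1-ps1 went the other way, with both R342C libraries above both WT ID libraries, and did not pass (2.87 ± 1.04, limma adjusted p = 0.0533). Its R342C pair was far apart, at 421 and 52.2 normalized counts.

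Of the increases named by rule, which asks for 50 normalized counts on average, the largest was that of Evc, which encodes a ciliary protein of the complex that carries the Hedgehog signal at the base of the cilium. Evc had 382 and 252 normalized counts in R342C ID libraries, against 35.8 and 103 in WT ID libraries (2.33 ± 0.35, adjusted p = 0.000158). The WT ID libraries were far apart, and dropping replicate 1 of them gave 1.58 and dropping replicate 2 gave 3.08. Evc2, the divergent neighbour and partner of Evc, had 619 and 501 in R342C ID and 120.0 and 239.6 in WT ID (1.71 ± 0.24, adjusted p = 8.31e-05). The Hedgehog targets Gli1, a transcription factor (1.47 ± 0.27), and Hhip, a decoy receptor (1.73 ± 0.27), rose too. Ptch1, a receptor and target of the same pathway, did not pass (4995 and 4888 in R342C ID, 5525 and 5263 in WT ID), and Ift88, needed to build cilia, fell (−0.61 ± 0.12). In the list of cilium and Hedgehog genes as a whole, 5 rose and 2 fell of 18, with a median of −0.09 that was 0.01 on TPM. The remaining leading increases included Rnf144a, a ubiquitin ligase (2.26 ± 0.40). Dnm1, the neuronal dynamin, had 1021 and 893 in R342C ID and 228 and 257 in WT ID (1.98 ± 0.25). Mmp2, a gelatinase (1.96 ± 0.23), Irf8, a transcription factor of myeloid cells (1.96 ± 0.42), Fgd5, an exchange factor for CDC42 (1.92 ± 0.19), Rab17, a small GTPase (1.90 ± 0.26), and Pkdcc, a secreted kinase (1.98 ± 0.39), rose by 1.90 to 1.98. Pkdcc lies in a raised stretch of chromosome 17 described below, and centring along chromosomes brought it to 1.09 (adjusted p = 0.0454).

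**Figure D2:**
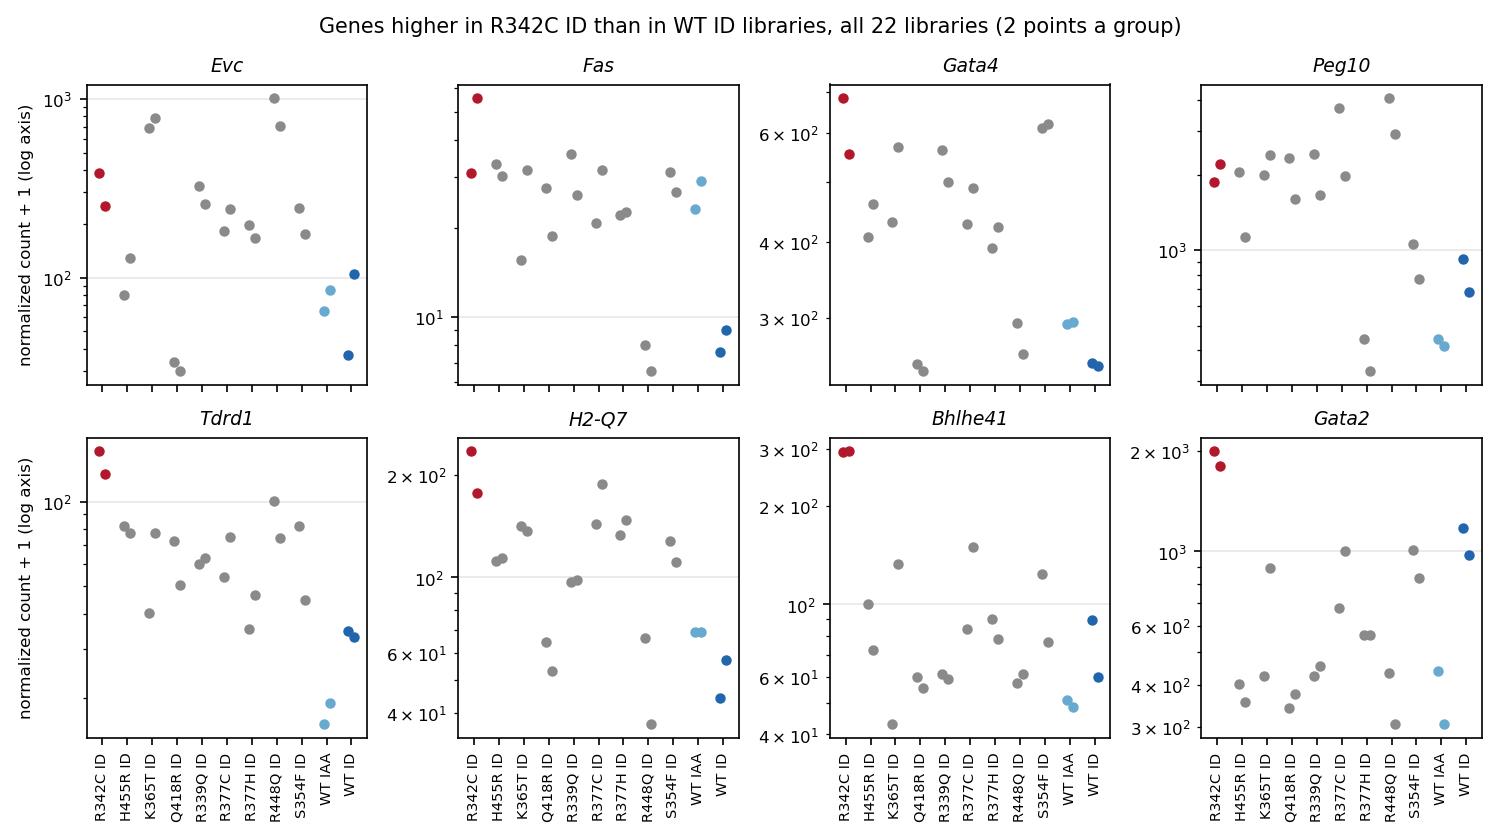
Normalized counts plus 1 (vertical, log axis, one scale per panel) of 8 genes that were higher in R342C ID than in WT ID, in each of 22 libraries grouped by line and treatment (2 points per group, no error bars). R342C ID (red, left) lies above WT ID (dark blue, right) in every panel, and for Bhlhe41 (292 and 293 normalized counts) and Gata2 (1992 and 1800) above every other library. Bhlhe41 and Gata2 were named by a rule that picks genes high in R342C ID.

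Genes of the germline and of the piRNA pathway, which silences transposons in germ cells, were among the groups with many increases. Of 41 tested, 16 were higher and 3 lower, with a median log2 fold change of 0.48. Tdrd1, a Tudor-domain scaffold for PIWI proteins, had 149.9 and 124 normalized counts in R342C ID libraries, against 33.6 and 32.1 in WT ID libraries (2.02 ± 0.33). Tdrkh, a mitochondrial partner of PIWI proteins, had 132 and 139 in R342C ID and 32.2 and 38.1 in WT ID (1.92 ± 0.24). In both genes the R342C libraries were about level with each other and above both WT ID libraries, a separation that the rule naming them required. The helicases Ddx4 (1.05 ± 0.16) and Mov10l1 (1.05 ± 0.21), the helicase and Tudor protein Tdrd9 (1.56 ± 0.24) and Piwil2 (0.96 ± 0.19) rose along with them. So did the testis histones H2ac1 (2.01 ± 0.24) and H2bc1 (1.83 ± 0.28), the bromodomain gene Brdt (1.57 ± 0.14) and Tex101 (1.82 ± 0.28). Dazl, an RNA-binding protein of early germ cells, had 1139 and 1417 in R342C ID and 1572 and 1139 in WT ID and did not pass. Magea5, a cancer-testis gene on the X chromosome, fell to 5.05 and 5.8 in R342C ID, against 41.7 and 25.1 in WT ID (−2.38 ± 0.48). Leaving out single libraries gave 14 or 15 increases in this list.

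Class I antigen presentation moved upward as well, with 11 higher and 1 lower of 24 (median 0.40). H2-Q7, a non-classical class I gene, had 234 and 176 normalized counts in R342C ID and 43.2 and 56.2 in WT ID (2.02 ± 0.25). H2-Q4 (1.93 ± 0.30), the classical gene H2-K1 (0.55 ± 0.13) and B2m, the light chain they share (0.67 ± 0.10), rose too. So did Tap1, a subunit of the peptide transporter (1.23 ± 0.21), and Psmb9, a subunit of the immunoproteasome (1.58 ± 0.35). Class I genes are similar in sequence, which makes the division of reads among the H2-Q genes uncertain, and the 11 increases became 7 without WT ID replicate 2. The interferon response list gave 2 higher and 4 lower of 17 (median 0.08), near the background in the upward direction. In it Ddx58, the RIG-I sensor, was lower (−0.78 ± 0.15).

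Targets of p53, the DNA damage and stress factor, were higher in 19 and lower in 1 of 34 (median 0.38). Fas, a death receptor, had 29.8 and 54.5 normalized counts in R342C ID and 6.58 and 8.02 in WT ID (2.32 ± 0.39). Dcxr, a carbonyl reductase, had 1526 and 1449 in R342C ID and 768 and 674 in WT ID (1.05 ± 0.13). Plk2, a stress-induced kinase (0.86 ± 0.16), Zmat3, an RNA-binding protein (0.51 ± 0.10), and the cell cycle inhibitor Cdkn1a (0.54 ± 0.13) rose by less. Cdkn1a lost its call when R342C ID replicate 1 (adjusted p = 0.0753) or WT ID replicate 2 was left out (adjusted p = 0.0868), and the number of increases in the list became 11 in the absence of R342C ID replicate 2 and 7 in that of WT ID replicate 2. The targets gave 3 higher and 8 lower against R339Q ID, where 10.9% of all genes were higher and 15.8% lower. They gave 16 higher and 3 lower against the other 8 mutants (16.3% and 21.7% of all genes). Against WT IAA they gave 5 higher and 10 lower (20.5% and 22.8% of all genes).

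Genes of the cell cycle and of DNA replication were lower in 26 and higher in 1 of 43, by small amounts (median −0.27). Plk1, a mitotic kinase, had 5526 and 6109 normalized counts in R342C ID and 8159 and 7863 in WT ID (−0.46 ± 0.09). Mcm5, a subunit of the replicative helicase (−0.39 ± 0.07), and Cdk1, the mitotic cyclin-dependent kinase (−0.34 ± 0.07), were lower as well. The exception was Ccnd2, a G1 cyclin, at 262 and 223 in R342C ID and 80.5 and 76.2 in WT ID (1.61 ± 0.22). The 26 decreases became 14 on TPM and 14 after quantile normalization, 15 on leaving out R342C ID replicate 1 and 12 on leaving out WT ID replicate 2. The median stayed negative on every scale, at −0.17 on TPM. Replication-dependent histones gave 8 lower and 0 higher of 42 (median −0.22). Total RNA libraries keep these transcripts, which lack a poly(A) tail, and their decreases became 0 when either R342C ID replicate 1 or WT ID replicate 2 was dropped.

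Subunits of oxidative phosphorylation encoded in the nucleus were lower in 17 and higher in 0 of 75 (median −0.18). Uqcrh, a hinge subunit of complex III, had 955 and 1264 normalized counts in R342C ID and 1851 and 1964 in WT ID (−0.79 ± 0.11). Atp5k (−0.75 ± 0.16) and Atp5g3 (−0.54 ± 0.08), subunits of the ATP synthase, were lower too. Of the 13 mitochondrially encoded genes, 2 were higher (1 on TPM) and 0 lower. Their log2 fold changes ran from −0.80 to 0.81, with a median of 0.11. The 2 were mt-Co1 at 312561 and 325582 in R342C ID and 178508 and 184981 in WT ID (0.81 ± 0.21) and mt-Nd5 (0.74 ± 0.26). Both calls were lost when a WT ID library was left out (mt-Co1 adjusted p = 0.0593 without replicate 1). The nuclear count of 17 became 27 when R342C ID replicate 2 was dropped, 8 when R342C ID replicate 1 or WT ID replicate 2 was, and 9 when WT ID replicate 1 was and on TPM.

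Heat shock and protein folding genes were lower in 9 and higher in 1 of 28 (median −0.12). Hsph1, a nucleotide exchange factor for HSP70, had 3876 and 4830 in R342C ID and 9357 and 9783 in WT ID (−1.14 ± 0.11), and the small chaperone Hspb1 had 5565 and 6666 in R342C ID and 10528 and 10070 in WT ID (−0.76 ± 0.11). The 9 became 2 when R342C ID replicate 1 was dropped and 4 when WT ID replicate 2 was. Hsph1 lies in the lowered stretch of chromosome 5 described below, whose tested genes had a median of −0.60. Cholesterol synthesis genes gave 6 lower and 1 higher of 25, with 4 lower on TPM. Glycolysis and hypoxia genes gave 3 higher and 3 lower of 33, close to the background, with P4ha2, a collagen prolyl hydroxylase, higher (0.92 ± 0.19) and Kdm3a, a histone demethylase, lower (−0.45 ± 0.09). Genes of DNA methylation and imprint maintenance gave 6 lower of 21 and 0 higher, led by the dioxygenase gene Tet3 (−0.60 ± 0.10), and the 6 became 2 on TPM, 4 when R342C ID replicate 1 or WT ID replicate 1 was dropped and 3 when WT ID replicate 2 was. The Myc family gave 1 higher and 2 lower of 10 (Myc −0.90 ± 0.24, a call lost without R342C ID replicate 2, adjusted p = 0.115), and the aryl hydrocarbon receptor list 1 of each of 9.

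**Figure D3:**
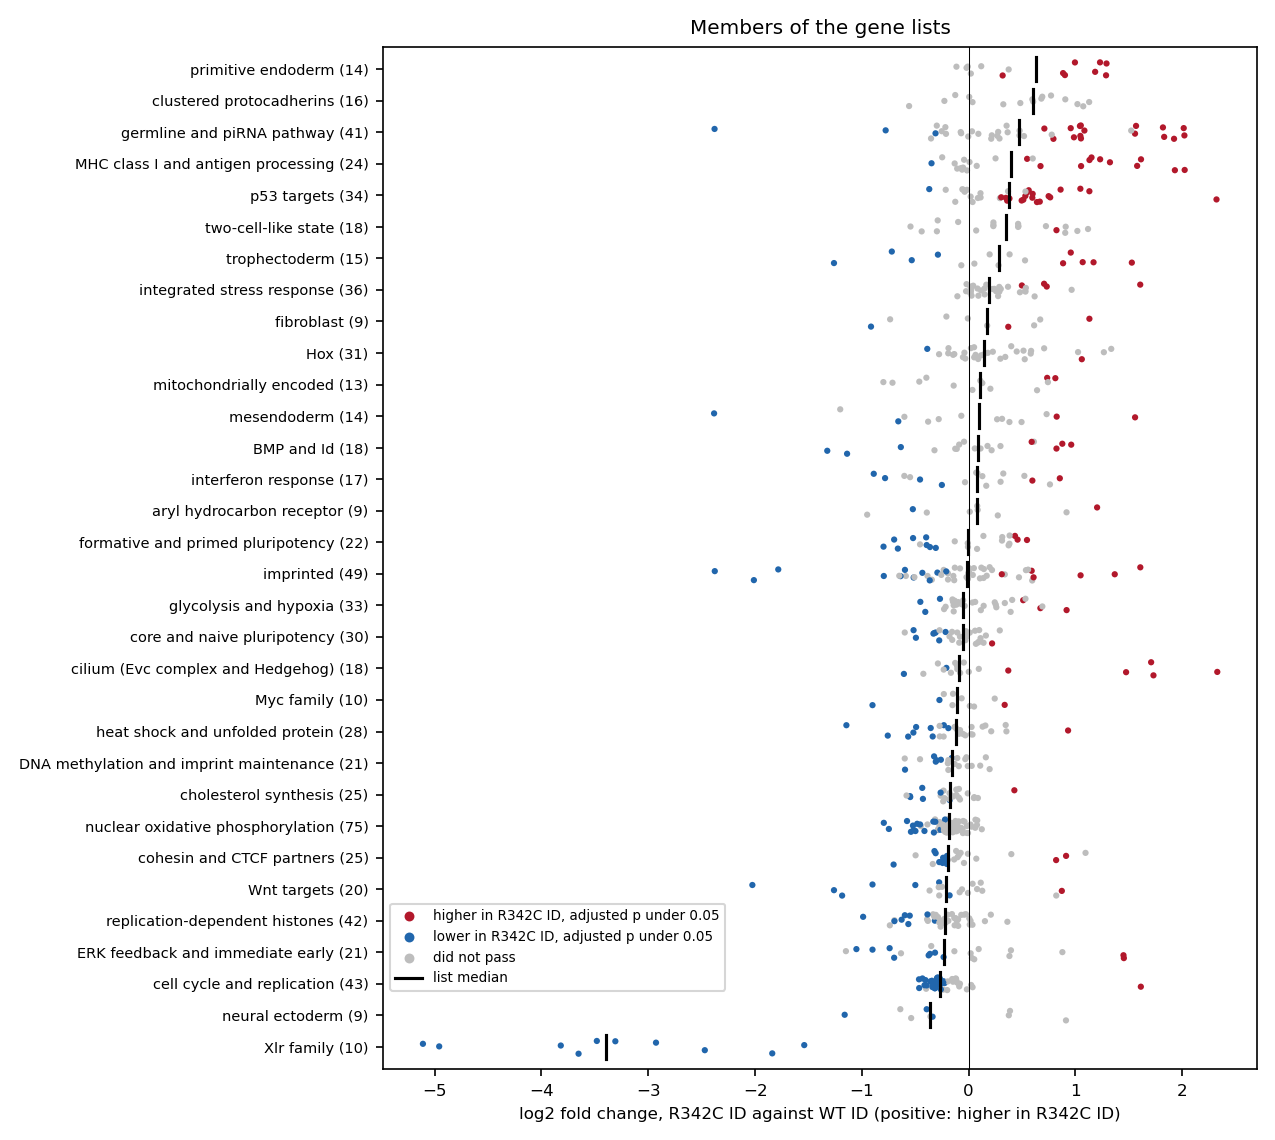
Each point is a tested gene, placed by its log2 fold change between R342C ID and WT ID (horizontal), in the gene lists with at least 8 tested members (rows, tested number in parentheses, ordered by their median, which is the black bar). Red and blue points passed an adjusted p under 0.05, and the Xlr family, with a median of −3.40, lies far from the other lists.

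Core pluripotency factors were expressed at high levels in all 4 libraries. Pou5f1 had 17106 and 17382 normalized counts in R342C ID and 19161 and 19246 in WT ID (−0.16 ± 0.08), and Nanog had 37666 and 35346 in R342C ID and 35872 and 36562 in WT ID (0.01 ± 0.08). Neither passed, with 95% limits of −0.32 to 0.01 for Pou5f1 and −0.16 to 0.19 for Nanog. Of 30 core and naive genes 1 was higher and 7 lower (median −0.06, 0.05 on TPM), with Nr0b1, a nuclear receptor (−0.52 ± 0.10), and Dppa2 (−0.49 ± 0.09) lower under every alternative. Of 22 formative and primed genes 3 were higher and 8 lower, the transcription factor Etv4 (−0.70 ± 0.12) being among those lower. On TPM the first list gave 5 higher and 2 lower and the second 4 higher and 3 lower, and leaving out 1 library gave at least 4 and 3 decreases.

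Markers of the primitive endoderm, the yolk sac lineage that can arise in such cultures, were higher in 8 and lower in 0 of 14 (median 0.63). Gata4, a transcription factor of that lineage, had 684 and 554 normalized counts in R342C ID and 252 and 249.7 in WT ID (1.29 ± 0.14). Lamb1, a laminin chain, had 1472 and 1719 in R342C ID and 598 and 709.9 in WT ID (1.29 ± 0.15), and Col4a2, a basement membrane collagen, rose too (1.18 ± 0.21). Sox17 (25.7 and 30.2 in R342C ID, 45.4 and 20.1 in WT ID) and Dab2 (211 and 335 in R342C ID, 336 and 213 in WT ID), further markers of the lineage, overlapped between the groups and did not pass. Summed over the list, TPM reached 804 and 726 in R342C ID and 691 and 632 in WT ID, and the 8 increases became 3 when WT ID replicate 2 was left out and 5 when any other of the 4 libraries was. In bulk RNA, a change in the number of such cells and a change in RNA per cell cannot be told apart.

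Other lineages gave mixed counts. Trophectoderm genes were higher in 5 and lower in 4 of 15, with the keratin Krt7 higher (1.53 ± 0.35) and Cdx2 lower (−1.26 ± 0.31), a call lost without R342C ID replicate 2 (adjusted p = 0.0688) or WT ID replicate 2 (adjusted p = 0.0633). Mesendoderm genes gave 2 higher and 2 lower of 14. Lefty2, a secreted Nodal inhibitor, had 129 and 36.0 in R342C ID and 382 and 339.9 in WT ID (−2.38 ± 0.50), with the R342C pair far apart but both below WT ID, and the log2 fold change was −3.29 without R342C ID replicate 1 and −1.48 without replicate 2. Mesp2 rose (1.56 ± 0.26) and Gsc fell (−0.66 ± 0.13). Neural ectoderm genes gave 0 higher and 3 lower of 9, led by Gbx2 (−1.16 ± 0.15). Fibroblast genes, a check for other cells in the dish, gave 2 higher and 1 lower of 9, with Col1a1 higher (1.13 ± 0.23) and Vim lower (−0.91 ± 0.11), and S100a4 at 0 in all 4 libraries. Their summed TPM was 1070 and 969 in R342C ID and 948 and 869 in WT ID. Genes of the 2-cell-like state gave 1 higher (Gata2) and 0 lower of 18, and Hox genes 1 higher and 1 lower of 31.

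Readouts of the pathways that the culture medium acts on were also examined. Among Wnt targets, which GSK3 inhibition raises, 7 were lower and 1 higher of 20 (median −0.21). Sp5, a direct target and transcription factor, had 449 and 344 normalized counts in R342C ID and 1455 and 1769 in WT ID (−2.03 ± 0.24). Dkk1, a secreted Wnt inhibitor (−1.18 ± 0.23), and Axin2, a feedback inhibitor (−0.50 ± 0.09), were lower too, while the inhibitor Nkd1 was higher (0.87 ± 0.17). The 7 decreases became 4 on TPM, 3 when R342C ID replicate 2 was dropped and 4 when WT ID replicate 2 was. Among genes of ERK feedback and the immediate early response, 8 were lower and 2 higher of 21 (median −0.23). The ETS factor Etv1 had 1523 and 1554 in R342C ID and 3284 and 3096 in WT ID (−1.05 ± 0.16), and the phosphatase Dusp6 had 292 and 319 in R342C ID and 551 and 472 in WT ID (−0.74 ± 0.15). On TPM 3 of this list were lower and 3 higher. Of 18 genes of the BMP pathway 4 rose and 3 fell. Among them Id4, an inhibitor of helix-loop-helix factors, fell to 384 and 516 in R342C ID, against 979 and 984 in WT ID (−1.14 ± 0.15).

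Untreated cells placed some of these genes differently, on TPM and without a test, since they were scaled in a separate table. Efhc2 stood at 2.14 and 3.22 TPM in R342C ID, 20.6 and 24.8 in WT ID and 18.96 and 24.5 in untreated cells, and Hsph1 at 44.9 and 51.2 in R342C ID, 100.3 and 97.5 in WT ID and 107 and 119 in untreated cells. For both genes R342C ID was the low one of these 3 groups. Sp5 stood at 18.0 and 12.6 TPM in R342C ID, 53.9 and 61.0 in WT ID and 10.1 and 11.3 in untreated cells, so that WT ID was the highest of these 3. On normalized counts Sp5 had 2433 and 2679 in WT IAA, above the 1455 and 1769 of WT ID. Dkk1 stood at 11.2 and 11.9 in R342C ID, 25.9 and 23.1 in WT ID and 0.542 and 0.235 in untreated cells, which were the lowest of the 3. Lefty2 stood at 4.15 and 1.06 in R342C ID, 11.4 and 9.43 in WT ID and 106 and 109 in untreated cells, which were the highest of the 3.

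Of 25 genes of cohesin and CTCF partners 2 were higher and 10 lower (median −0.19). The meiotic cohesin subunits Stag3 (3577 and 3495 in R342C ID, 1887 and 1869 in WT ID, 0.91 ± 0.11) and Rec8 (2238 and 2061 in R342C ID, 1266 and 1169 in WT ID, 0.82 ± 0.15) rose. Pds5b, a regulator of cohesin release, had 4258 and 4348 in R342C ID and 6962 and 7047 in WT ID (−0.70 ± 0.07). Smc1a (−0.10 ± 0.09) and Smc3 (−0.19 ± 0.07), the arms of the cohesin ring, did not pass. The 10 decreases became 2 on TPM, 4 after quantile normalization, 5 when R342C ID replicate 1 was dropped, and 6 and 4 when WT ID replicate 1 and 2 were. No clustered protocadherin passed among 16 tested of 57 matched (limma, median 0.60). At an unadjusted p under 0.05, 2 were higher and 1 lower, and 1 was higher by edgeR and on TPM, and 26 of the 57 were at 0 in all 4 libraries. Against WT IAA, 11 of the 16 were higher in R342C ID and 0 lower (median 2.14), where 20.5% of all genes were higher and 22.8% lower.

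The decrease of Pds5b was shared by its neighbours. Among the 24 tested genes of chromosome 5 from Hmgb1 to the chromosome end (149046702 to 151651242), 10 were lower and 0 higher, with a median of −0.60, against −0.02 over the 1248 genes before it. After centring values along chromosomes Pds5b differed by −0.11 (adjusted p = 0.607). Medians of the same stretch against WT ID lay between −0.84 and −0.28 in the other 8 mutants and at −0.26 in WT IAA. On TPM the median difference from the WT ID mean was −0.38 and −0.57 in the R342C ID libraries and −0.45 and −0.40 in those of untreated cells, which overlapped. The extent of the stretch was chosen after its values were seen.

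A longer stretch on chromosome 17 was raised as a whole. From Clip4 to the chromosome end (71768473 to 94878321, 23.1 Mb), 80 of 91 tested genes were higher in R342C ID and 0 were lower, with a median log2 fold change of 0.92, or 1.89-fold. Over the 742 genes of chromosome 17 before Clip4 the median was −0.04, with 73 higher and 107 lower. The stretch holds genes of varied function. They include the mismatch repair gene Msh6 (23637 and 30056 in R342C ID, 14981 and 15319 in WT ID, 0.82 ± 0.10). Birc6, an inhibitor of apoptosis (0.72 ± 0.12), Sos1, an exchange factor for RAS (0.99 ± 0.07), Eml4, a microtubule protein (0.93 ± 0.06), Lrpprc, a regulator of mitochondrial mRNA (0.77 ± 0.07), and Calm2, 1 of the calmodulin genes (0.61 ± 0.07), were raised to a like degree. The stretch and these examples other than Msh6, Calm2 and Pkdcc were chosen after their values were seen.

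The step was not particular to R342C. Against WT ID the same 91 genes had medians of 0.92 to 0.97 in 7 of the other 8 mutants and of −0.01 in H455R ID and in WT IAA. In H455R ID the 17 genes from Clip4 to Crim1 had a median of 0.98 and the 74 genes from Fez2 onward one of −0.06, whereas in R342C ID these medians were 0.87 and 0.92. By library, the median difference from the WT ID mean was 0.89 and 0.99 in R342C ID, 0.06 and −0.01 in WT IAA, and, on TPM, 1.05 and 0.99 in R342C ID against −0.13 and −0.20 in untreated cells. The WT IAA libraries on normalized counts and the untreated libraries on TPM lay near WT ID, and both R342C libraries were apart from them. Line and substitution cannot be told apart for these genes. Genes of the stretch made up 4.28% of all increases in R342C ID and 0.486% of the genes tested, and without them 1791 genes were higher and 2494 lower. Centring along chromosomes brought Msh6 to −0.04 and Calm2 to −0.29.

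**Figure D4:**
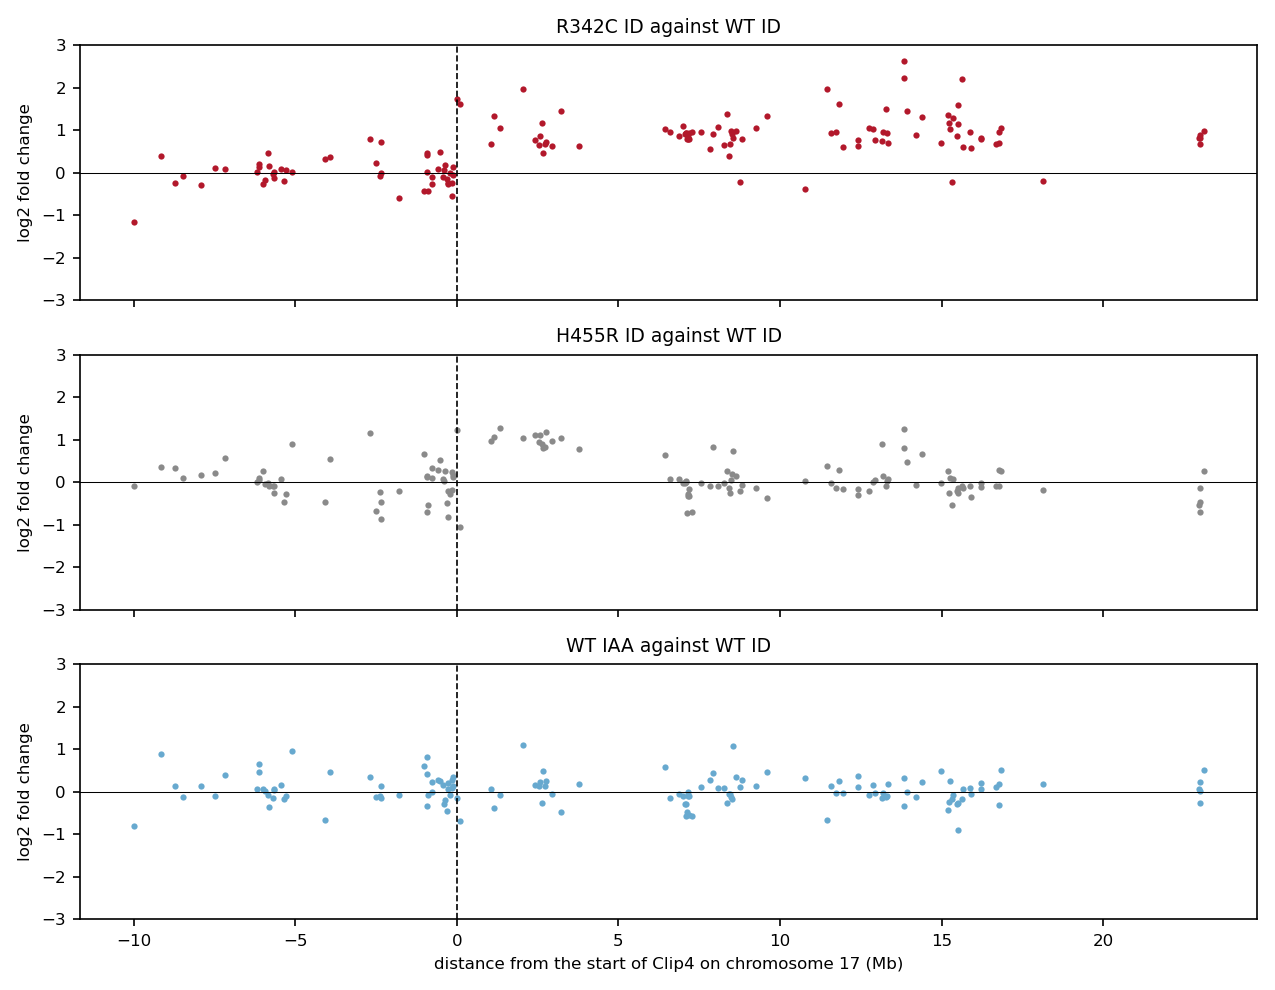
Log2 fold change against WT ID (vertical) of each tested gene of distal chromosome 17 by the distance of its start from that of Clip4 in Mb (horizontal, dashed line at 0), for R342C ID, H455R ID and WT IAA from top to bottom. In R342C ID the points step up at Clip4 and stay near the median of 0.92 to the chromosome end, in H455R ID they are raised only as far as Crim1, and in WT IAA they stay around 0.

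Setting R342C against R339Q asked whether substitutions in the same finger gave like profiles. Of 18713 genes 4991 (26.7%) differed, 2038 higher (10.9%) and 2953 lower (15.8%) in R342C ID. On TPM 2393 were higher and 1774 lower. Most Xlr genes were not separated between the finger 3 lines. Xlr3c had 88.3 and 181 normalized counts in R342C ID and 88.1 and 88.0 in R339Q ID, and of the 10 tested members only Xlr5a passed, at 5.05 and 6.96 in R342C ID and 14.5 and 19.02 in R339Q ID (−1.35 ± 0.30, adjusted p = 0.00264). For Xlr3c the difference was 0.52 ± 0.25, with 95% limits of −0.02 and 1.05, and the median over the 10 was 0.24, where that of all genes was −0.02. Peg3 was slightly higher in R342C ID than in R339Q ID (0.62 ± 0.19, adjusted p = 0.0216), and Evc was not separated (0.10 ± 0.35, 95% limits −0.64 to 0.84). Tdrd1 was higher in R342C ID (149.9 and 124 normalized counts, against 59.1 and 61.8 in R339Q ID, 1.16 ± 0.33). Heat shock genes gave 1 higher and 15 lower of 28 (median −0.26), and nuclear oxidative phosphorylation 0 higher and 25 lower of 75 (median −0.14).

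The integrated stress response, a programme run by the factor ATF4 when translation is limited, separated the finger 3 lines. Of its 36 tested genes 32 were higher in R342C ID than in R339Q ID and 0 lower (median 0.74). Against the mean of the other mutants, R339Q ID included, 24 of the 36 were higher in R342C ID and 0 lower (median 0.39). The contrast was thus not shown to be particular to the finger 3 lines. Chac1, an enzyme that degrades glutathione, had 1796 and 1787 normalized counts in R342C ID, 540.5 and 678 in R339Q ID, 254 and 207 in WT IAA and 1593 and 1477 in WT ID. Trib3, a pseudokinase, had 3378 and 3670 in R342C ID, 1215 and 1474 in R339Q ID, 801 and 695 in WT IAA and 3121 and 2617 in WT ID. For both genes R342C ID and WT ID stood high and R339Q ID and WT IAA low. The differences from R339Q ID were 1.56 ± 0.15 for Chac1 (adjusted p = 2.99e-06), 1.40 ± 0.19 for Trib3 (adjusted p = 6.05e-05) and 0.56 ± 0.10 for Atf4 (adjusted p = 0.000726). Against WT ID, 4 of the 36 were higher and 0 lower (median 0.19, with 11 higher after quantile normalization), and against WT IAA 35 were higher and 0 lower (median 1.13). WT IAA also differs from R342C ID in doxycycline and in line. Sesn2, a further target, did not pass against WT ID (0.02 ± 0.07), R339Q ID (−0.08 ± 0.07) or WT IAA (0.05 ± 0.07).

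**Figure D5:**
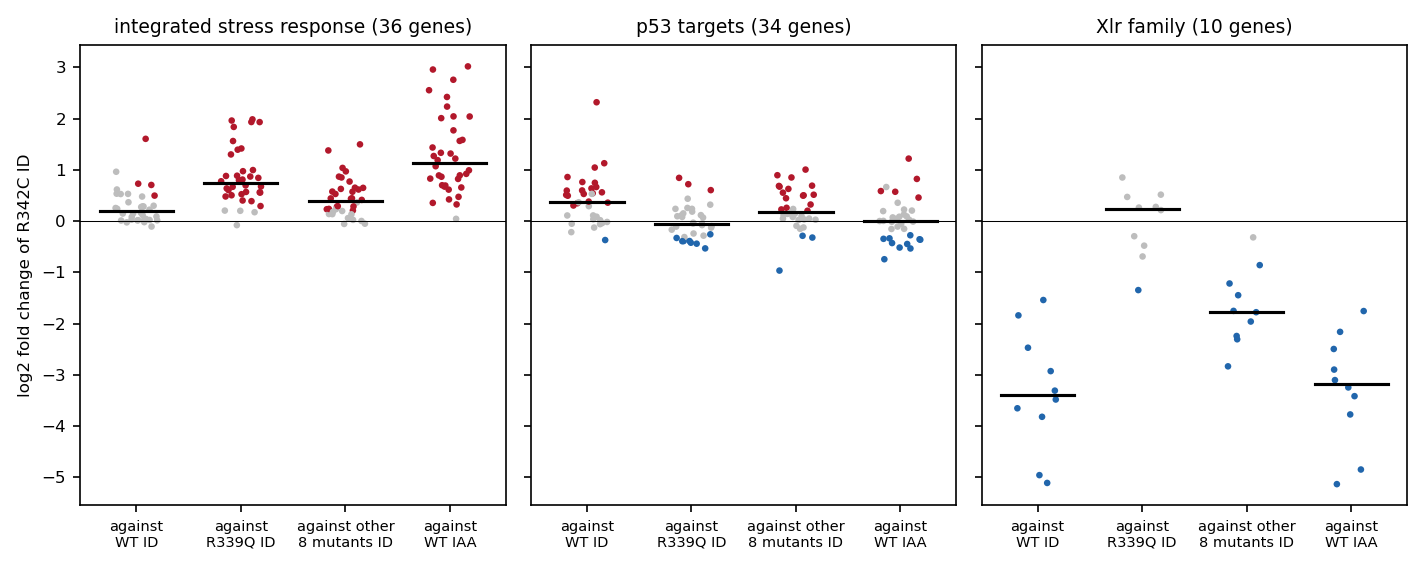
Log2 fold change of R342C ID (vertical) against WT ID, R339Q ID, the other 8 mutants and WT IAA (horizontal) for the genes of 3 lists, with list medians as black bars and genes that passed in red (higher in R342C ID) or blue (lower). The stress response median is 0.19 against WT ID and 1.13 against WT IAA, and the Xlr median is −3.40 against WT ID and 0.24 against R339Q ID.

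Against the mean of the other 8 mutants, 7103 genes (38%) differed, 3047 higher (16.3%) and 4056 lower (21.7%) in R342C ID. On TPM 5104 were higher and 1816 lower, with the median of all genes at 0.13 and not at −0.01. Of the 10 Xlr genes 9 were lower (median −1.76), and the genes named next were also called against WT ID in the same direction. Bhlhe41, a repressor that is part of the molecular clock, had 292 and 293 normalized counts in R342C ID, against 42.0 to 149 (median 73.6) in the 16 other mutant libraries and 88.5 and 59.2 in WT ID. Gata2, a transcription factor of blood and trophoblast, had 1992 and 1800 in R342C ID, against 304 to 1010 (median 443) in the other mutants and 1174 and 976 in WT ID. In both genes the R342C libraries were above all others, though the rule that named them picks genes high in R342C ID. The differences from the other mutants were 1.93 ± 0.29 (adjusted p = 4.58e-05) and 1.85 ± 0.19 (adjusted p = 1.46e-06), and the Gata2 call against WT ID (0.82 ± 0.25) was lost when any of the 4 libraries was left out (adjusted p up to 0.172, without WT ID replicate 2).

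Ripply3, a transcriptional co-repressor (2.25 ± 0.23), Kctd19, a meiotic gene (2.19 ± 0.37), Bdkrb2, the bradykinin receptor (2.18 ± 0.30), and Adssl1, an enzyme of AMP synthesis (1.96 ± 0.21), were further genes higher than in the other mutants. For Ripply3, Kctd19 and Bdkrb2 the call against WT ID (1.25, 1.81 and 1.33) was lost when R342C ID replicate 1 (adjusted p = 0.0706, 0.0655 and 0.091) or WT ID replicate 2 was left out (up to 0.0953). Adssl1 had 925 and 753 normalized counts in R342C ID, 61.9 to 566 in the other mutants and 342.3 and 341.9 in WT ID. Id3, which opposes helix-loop-helix factors, was the main gene outside the Xlr cluster on the lower side. It had 34.3 and 46.4 in R342C ID, 82.8 to 465 (median 236) in the other mutants and 75.3 and 136 in WT ID. The R342C libraries were lowest, in a gene picked for being low there. The difference was −2.44 ± 0.33 from the other mutants (adjusted p = 2.03e-05) and −1.32 ± 0.44 from WT ID (adjusted p = 0.0364), and that from WT ID was lost without WT ID replicate 2 (adjusted p = 0.299) or without either R342C ID library (up to 0.202). Hox genes, with 12 higher and 0 lower of 31 against the other mutants, were a group that stood higher in this comparison than in that with WT ID (medians 0.28 and 0.14), a gap that was not tested.

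Against WT IAA, in which the transgene was not induced, 8097 genes (43.3%) differed, 3837 higher (20.5%) and 4260 lower (22.8%) in R342C ID, and on TPM 4484 were higher and 3061 lower. This set cells with the R342C protein beside cells in which the degron alone acted. The groups also differ in doxycycline and in line, which cannot be told apart from the transgene. The Xlr genes, at 88.3 and 181 for Xlr3c in R342C ID and 1499 and 1233 in WT IAA, were lower in all 10 cases. Dkk1 had 322 and 373 in R342C ID and 2149 and 2426 in WT IAA (−2.71 ± 0.23, adjusted p = 6.76e-08). Its level in R342C cells was below WT ID while that in WT IAA was above it. Gata2 had 1992 and 1800 in R342C ID and 439 and 305 in WT IAA, on either side of WT ID as well. Genes of the 2-cell-like state, which marks a rare totipotent-like fraction of such cultures, were lower in 10 and higher in 1 of 18 (median −2.26). Usp17le, a deubiquitinase gene of a repeated family, had 10.1 and 10.4 in R342C ID and 82.2 and 68.3 in WT IAA (−2.75 ± 0.57, adjusted p = 0.000673), and the Zscan4 genes of that state had low counts, with Zscan4c at 6.05 and 6.96 in R342C ID and 42.9 and 28.1 in WT IAA (adjusted p = 0.0576).

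Among abundant transcripts, changes were moderate. Sdc4, a heparan sulfate proteoglycan, had 8714 and 9610 normalized counts in R342C ID and 5298 and 4793 in WT ID (0.86 ± 0.18). Tubb4b, a beta-tubulin, had 10473 and 11488 in R342C ID and 16941 and 17074 in WT ID (−0.63 ± 0.10). The libraries did not overlap in either gene, as was the case for 61.8% of all genes tested. Mt2, a metallothionein (−0.59 ± 0.15), the histone gene H4c1 (−0.63 ± 0.14) and the ribosomal RNA gene n-R5-8s1 (−0.73 ± 0.16) were lower, but in each the R342C pair was uneven, and the calls were lost without R342C ID replicate 1 (adjusted p = 0.223 for Mt2, 0.0919 for H4c1 and 0.0612 for n-R5-8s1). Mt2 stood at 15259 and 24272 in R342C ID and 29939 and 28078 in WT ID.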

How the data were processed

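The libraries hold total RNA of mouse embryonic stem cells (ribosomal RNA depleted, stranded kit, paired 150 bp reads, per the labels' protocols). The authors deposited TPM and normalized counts, in which each library's gene counts were divided by a size factor. The submitters' processing notes name Trim Galore, STAR, DESeq2 and mm10, while the sources used here do not give the counter, annotation or strand setting. In all columns at least 99.998% of the deposited signal values were whole multiples of 1 read (tolerance 0.001), which gave the read totals.

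Gene symbols were placed with GENCODE M21, where 53186 of 55291 symbols had a single entry. Genes with a mean of at least 10 normalized counts over 22 libraries (18713) were tested with limma 3.58.1 in R 4.3.3 on log2(normalized count + 1), with a trended prior, 1 coefficient per group and Benjamini-Hochberg adjustment, a call being an adjusted p under 0.05. A log2 fold change on this scale understates changes of low genes. edgeR 4.0.16 and DESeq2 1.42.0 were run on the recovered reads as alternatives, and the fit was tested on simulated data. Values after ± are standard errors.

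Named genes were Ctcf, the 15 largest increases and decreases with a mean of at least 50 and no overlap between groups, the 5 most abundant in each direction that changed at least 1.5-fold, the 6 most apart from the other mutants in each direction, the neighbours of Pds5b and of the Xlr cluster, and members of 33 gene lists. Some genes that these rules cover are not reported here. The comparison, members, lists and rules were chosen with earlier results of these data known. Untreated cells, normalized in a separate table, entered no test.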

Additional observations from a re-analysis of the deposited data

Results flagged for a closer look

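The same step from WT ID gave different sizes in the finger 3 lines, R342C ID and R339Q ID, for 15 of the 45 genes named by rule. For each, the difference between R342C ID and R339Q ID was at least 1 on the log2 scale and passed in limma (adjusted p up to 0.047). WT ID is shared by both effects and cancels in the difference. Of all genes tested, 26.7% passed between R342C ID and R339Q ID at any size. The share of all genes with a difference of at least 1 is not given here.

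Among the genes with the largest changes, the effects against WT ID were H2-Q7 (2.02 in R342C ID and 0.96 in R339Q ID, a difference of 1.06), Tdrd1 (2.02 in R342C ID and 0.86 in R339Q ID, a difference of 1.16), Dnm1 (1.98 in R342C ID and 0.93 in R339Q ID, a difference of 1.04), Irf8 (1.96 in R342C ID and 0.80 in R339Q ID, a difference of 1.16) and Tdrkh (1.92 in R342C ID and 0.62 in R339Q ID, a difference of 1.31). Each was higher in R342C ID than in R339Q ID. On the lower side they were Xlr5a (−5.11 in R342C ID and −3.76 in R339Q ID, a difference of −1.35), Pkhd1 (−3.08 in R342C ID and −1.55 in R339Q ID, a difference of −1.53) and Nckap5 (−2.85 in R342C ID and −1.06 in R339Q ID, a difference of −1.79).

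For genes named as apart from the other mutants the effects were Bhlhe41 (2.00 in R342C ID and −0.29 in R339Q ID, a difference of 2.29), Ripply3 (1.25 in R342C ID and −1.11 in R339Q ID, a difference of 2.36), Kctd19 (1.81 in R342C ID and −1.82 in R339Q ID, a difference of 3.62) and Bdkrb2 (1.33 in R342C ID and −0.03 in R339Q ID, a difference of 1.36). Further, they were Adssl1 (1.28 in R342C ID and −0.71 in R339Q ID, a difference of 1.99), Gata2 (0.82 in R342C ID and −1.28 in R339Q ID, a difference of 2.10) and Id3 (−1.32 in R342C ID and 1.77 in R339Q ID, a difference of −3.09). Every one of the 15 was chosen by a rule that used R342C ID against WT ID or against the other mutants, R339Q ID included, so this selection leans toward genes extreme in R342C ID.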

How the results depend on the processing

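Counts of genes called lay within 1.5 times the reported ones under other pseudocounts, filters, scalings, tools, the block and centring, except that R342C ID against WT ID gave 2639 when the 4 libraries were fitted alone. Leaving out single libraries gave 2003 to 4189 calls against WT ID, 2229 to 4588 against R339Q ID, 3933 to 7435 against the other mutants and 6071 to 7391 against WT IAA. The counts that moved by over 1.5 times were, against WT ID, 2248 without R342C ID replicate 1 and, for the WT ID pair, 2572 without replicate 1 and 2003 without replicate 2, 3052 without R342C ID replicate 1 and 2229 without R339Q ID replicate 1 (against R339Q ID), and 3933 without R342C ID replicate 1 (against the other mutants). Fewer libraries in the fit leave fewer degrees of freedom.

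The share of calls that were higher moved with the scale. Against WT ID there were 1928 higher and 2117 lower with TMM scaling, 1922 and 1849 after quantile normalization, 2308 and 2165 with edgeR, and 2264 and 963 on TPM, so small decreases depend on the scale. Same-numbered libraries of R342C ID and WT ID did not deviate together (r = 0.025 across genes, which are not independent replicates, where all 55 pairs of groups spanned −0.25 to 0.38), and a replicate block gave 4371 calls against WT ID, 5013 against R339Q ID, 7162 against the other mutants and 8086 against WT IAA.

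Of 778 alternatives over 46 named genes, 731 kept direction and call, 45 lost the call and 2 reversed. Centring along chromosomes reversed Calm2 to −0.29 (adjusted p = 0.0086) and Msh6 to −0.043 (adjusted p = 0.784), since both lie in the raised stretch of chromosome 17. Leaving out that stretch, chosen after seeing the data, left 4285 genes against WT ID, 4969 against R339Q ID, 7072 against the other mutants and 8020 against WT IAA.

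With 2 libraries per group, of 27.8 to 77.1 M reads, the spread between libraries limits small differences. Counting noise adds to it in genes of low count, and its share was not measured. Genes under the mean of 10 normalized counts were not analysed here.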
